A study of Mus musculus with 27 samples.

Results

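The expression of 9 genes was followed through the mouse liver lobule before and during pregnancy. They are the cytochrome P450 genes Cyp1a1, Cyp1a2, Cyp2a4, Cyp2a5, Cyp2a22, Cyp2e1 and Cyp2f2, the aryl hydrocarbon receptor gene Ahr, and Por, which encodes NADPH-cytochrome P450 reductase. They were chosen by name from the 21823 genes in the table of FPKM values, and 8 of the 9 passed the filter on low values, which kept genes that reached 1 FPKM in 3 or more libraries. Cyp1a1 did not. FPKM counts fragments relative to transcript length and library size, so levels can be set side by side between genes. All animals were wild-type female C57BL/6 mice (the C57BL/6N substrain per the study's methods) that were not pregnant (NP) or were at day 8 or day 16 post coitum (dpc8, dpc16). At each of the 3 stages the lobule was laser-microdissected into zone 1, around the portal vein (PV zone), zone 2, between the veins (PA zone), and zone 3, around the central vein (CV zone). Each of the 9 groups had 3 libraries, 27 in all. The captured areas were pieces of whole tissue, so fewer cells of one type and less RNA per cell cannot be told apart. The study describes the libraries of a group as independent experiments and states in general that its experiments used different mice. The labels name no mouse for any library, and no source says whether zones that share a replicate number came from the same mouse. The p-values measure the spread between these libraries.

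Cytochrome P450 enzymes are haem proteins of the endoplasmic reticulum that oxidise drugs, toxins, steroids and other small molecules, and they receive their electrons from NADPH through Por. Ahr is a ligand-activated transcription factor that dimerises with Arnt and induces the Cyp1a genes, Cyp1a1 above all. In the liver most drug-metabolising P450 enzymes are made around the central vein, and Cyp2e1, which oxidises ethanol, acetone and acetaminophen, is a standard mark of those hepatocytes, while Cyp2f2, which oxidises naphthalene, is a standard mark of hepatocytes around the portal vein.

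Several of the enzymes are neighbours in the genome. On mm10 with the GENCODE vM21 annotation, Cyp2a4 (chr7:26307169-26315088, plus strand), Cyp2a5 (chr7:26835305-26843548, plus strand), Cyp2a22 (chr7:26931631-26939384, minus strand) and Cyp2f2 (chr7:27119909-27133660, plus strand) lie within 826 kb of chromosome 7. Cyp2e1 lies 114 Mb further along the same chromosome (chr7:140763739-140774987, plus strand). Cyp1a2 (chr9:57676937-57683703, minus strand) and Cyp1a1 (chr9:57687928-57703824, plus strand) are 4.22 kb apart as GENCODE genes and point away from each other. Ahr is on chromosome 12 (chr12:35497974-35535038, minus strand) and Por on chromosome 5 (chr5:135670033-135735326, plus strand). Cyp2a4 and Cyp2a5 encode the paired steroid and coumarin hydroxylases of the mouse, and their transcripts were 98.3% identical over 1738 aligned bases, with 30 differing bases. Of the 86-base windows of the Cyp2a4 transcript, the length of a read, 16.6% also occurred in another gene of the family, and 20.1% did so for Cyp2a5. Only uniquely mapped reads were counted, so the FPKM of these 2 genes rest on the windows that differ and their absolute levels are uncertain. Cyp2a22 shared 9.47% of its windows with Cyp2a12, and Cyp2f2 shared 6.18% with Gm15883. The remaining members shared at most 2.8%.

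Both gene pairs are shown by their start regions because the members of each pair differed in expression. The sequences are from RefSeq on GRCm38.p6, from 250 bases before to 50 bases after the annotated start, and 8 of the 9 members had an entry. For Cyp1a1 and Por the RefSeq start lies 9.685 kb and 19.11 kb inside the GENCODE gene given above, so the RefSeq starts of Cyp1a1 and Cyp1a2 are 13.96 kb apart. For the other 6 the annotations place the start within 0.08 kb of each other. The Cyp2a4 window is chr7:26306942-26307241 and the Cyp2a5 window is chr7:26835089-26835388, both on the plus strand. Capitals mark the 5 positions at which they differ, which are C19T, T131C, G161A, G205T and T270C when counted from 1 at the 5′ end of the Cyp2a4 window and written with the Cyp2a4 base first.
Cyp2a4: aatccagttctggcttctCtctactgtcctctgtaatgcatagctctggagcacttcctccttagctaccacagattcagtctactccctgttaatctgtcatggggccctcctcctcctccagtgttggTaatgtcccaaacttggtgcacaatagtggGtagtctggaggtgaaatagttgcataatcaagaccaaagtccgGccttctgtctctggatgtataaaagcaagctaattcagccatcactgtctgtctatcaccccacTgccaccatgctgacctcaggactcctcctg
Cyp2a5: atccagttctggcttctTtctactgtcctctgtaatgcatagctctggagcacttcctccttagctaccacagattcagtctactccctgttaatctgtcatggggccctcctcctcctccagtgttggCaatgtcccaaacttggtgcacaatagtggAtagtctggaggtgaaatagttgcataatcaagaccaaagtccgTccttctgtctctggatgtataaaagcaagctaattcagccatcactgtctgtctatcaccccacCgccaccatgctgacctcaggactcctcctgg
The 2 windows are offset by a single base and were identical at 294 of 299 aligned positions, 98.3%. The Cyp1a1 window is chr9:57697363-57697662 on the plus strand and the Cyp1a2 window is chr9:57683606-57683905 on the minus strand. Capitals mark GCGTG, the core to which the Ahr and Arnt dimer binds.
Cyp1a1: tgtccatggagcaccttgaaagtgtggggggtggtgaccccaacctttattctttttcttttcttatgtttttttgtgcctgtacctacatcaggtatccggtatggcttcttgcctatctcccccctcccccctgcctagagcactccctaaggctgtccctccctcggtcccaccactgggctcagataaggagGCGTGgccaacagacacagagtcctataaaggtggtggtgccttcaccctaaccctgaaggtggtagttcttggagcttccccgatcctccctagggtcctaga
Cyp1a2: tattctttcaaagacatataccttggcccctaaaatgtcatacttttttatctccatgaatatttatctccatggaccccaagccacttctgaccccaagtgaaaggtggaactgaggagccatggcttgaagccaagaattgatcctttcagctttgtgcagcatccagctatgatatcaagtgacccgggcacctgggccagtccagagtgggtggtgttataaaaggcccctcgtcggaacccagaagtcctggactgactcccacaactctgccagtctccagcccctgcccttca
Searched on both strands, GCGTG occurred at 1 place in the Cyp1a1 window, starting at position -54, and at 3 places in the Por window. It was not among the letters of the other 6 windows, and 32.4% of 32851 mouse promoter windows of this kind held it. TATAAA, the TATA box, started between positions -31 and -28 in the Cyp1a1, Cyp1a2, Cyp2a4, Cyp2a5, Cyp2a22 and Cyp2e1 windows and was not found in those of Cyp2f2 and Por, against 13.6% of all windows. The T cell factor motif CTTTGAT was in none of the 8 windows and in 3.73% of all. No match of one motif overlapped a match of another.

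The libraries summed to between 499866 and 988500 FPKM, and steps in the low values corresponded to an estimated 10.4 to 33.4 M mapped reads each. Alb took 15.2% to 21.0% of the sum in the dpc16 libraries other than zone 2 replicate 3 and zone 3 replicate 3, and at most 11.98% elsewhere. Although all mice are labelled female, 4 genes of the Y chromosome summed to 7.92 to 23.2 FPKM in 6 libraries, against at most 2.97 in the remaining 21. In NP livers these were replicate 1 of zone 1 and replicate 2 of zone 3. In dpc8 livers they were replicate 1 of zone 1 and replicate 2 of zone 2, and in dpc16 livers replicate 3 of both zone 2 and zone 3. The same 6 libraries held 1107 to 5213 FPKM in 13 connective tissue and smooth muscle markers, against 87.3 to 639 in the rest. Where leaving them out changed the call of a member, the value without them is given beside the result. The zone labels matched their markers, since zone 1 exceeded zone 3 for 7, 7 and 10 of 12 periportal markers at NP, dpc8 and dpc16, and fell below it for 11, 12 and 12 of 12 pericentral markers.

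The first question was how each enzyme was distributed across the lobule. Most of the enzymes were highest around the central vein. Cyp2e1 reached the highest level of the 9 genes, in zone 3. In NP livers it measured 216, 247 and 268 FPKM in zone 1, 4867, 2620 and 2875 in zone 2, and 11838, 7106 and 10625 in zone 3. At dpc8 the libraries of zone 1 had 217, 186 and 74.9 FPKM, those of zone 2 had 3549, 1925 and 2177, and those of zone 3 had 10617, 9487 and 7751. At dpc16 the values were 103, 98.9 and 49.9 in zone 1, 1564, 1190 and 687 in zone 2, and 8168, 8257 and 4105 in zone 3. At every stage the 3 zones did not overlap, and the level rose from zone 1 through zone 2 to zone 3. The mean of zone 3 was 40.4 times that of zone 1 in NP livers, 58.3 times at dpc8 and 81.4 times at dpc16. On the log2(FPKM + 1) scale, zone 1 minus zone 3 was -5.30 (SE 0.41) in NP livers, -5.98 (0.41) at dpc8 and -6.33 (0.41) at dpc16, with limma adjusted p of 1.95e-08, 5.47e-09 and 9.52e-10.

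Cyp1a2 oxidises caffeine and aromatic amines. Its NP libraries had 36.9, 46.1 and 110 FPKM in zone 1, 260, 226 and 253 in zone 2, and 791, 629 and 932 in zone 3. Its dpc8 libraries had 33.8, 170 and 263 FPKM in zone 1, 198, 305 and 507 in zone 2, and 720, 1057 and 1031 in zone 3. Its dpc16 libraries had 17.0, 14.2 and 31.8 FPKM in zone 1, 104, 61.3 and 70.7 in zone 2, and 478, 326 and 477 in zone 3. Zones 1 and 3 did not overlap at any stage, and zone 3 exceeded zone 1 by 12.2 times, 6.02 times and 20.3 times in the means. The log2 differences between zones 1 and 3 were -3.73 (SE 0.53, limma adjusted p = 0.000132), -2.99 (SE 0.53, adjusted p = 0.00194) and -4.34 (SE 0.53, adjusted p = 1.2e-05) in NP, dpc8 and dpc16 livers.

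Cyp2a5, the coumarin 7-hydroxylase, had 66.7, 15.6 and 135 FPKM in zone 1 of NP livers, 1201, 146 and 148 in zone 2, and 3350, 596 and 4482 in zone 3. At dpc8 it had 54.8, 40.8 and 28.5 FPKM in zone 1, 932, 367 and 656 in zone 2, and 2806, 2169 and 2321 in zone 3. At dpc16 it had 41.3, 24.1 and 133 FPKM in zone 1, 238, 98.5 and 353 in zone 2, and 1320, 888 and 1322 in zone 3. All zone 3 libraries lay above all zone 1 libraries of the same stage, but libraries within a group differed widely. In NP zone 3 the lowest, 596 FPKM, was replicate 2, which is among the 6 libraries with Y-linked and connective tissue transcripts. Zone 1 minus zone 3 was -5.28 (SE 0.84, limma adjusted p = 0.000554), -5.88 (SE 0.84, adjusted p = 0.000151) and -4.47 (SE 0.84, adjusted p = 0.00293) on the log2 scale at NP, dpc8 and dpc16.

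Cyp2a22 was the weakest of the measurable enzymes, between 2.08 and 152 FPKM over all libraries. Its mean in zone 3 was 87.8 ± 62.8 FPKM (SD, n = 3) in NP livers, 67.7 ± 35.3 at dpc8 and 39.1 ± 5.00 at dpc16, and in zone 1 it was 7.04 ± 5.03, 12.5 ± 10.5 and 4.24 ± 1.64. The groups did not overlap, but the log2 difference passed the threshold only in NP livers (-3.34, SE 0.84, limma adjusted p = 0.0464), and that call was lost when any of NP zone 1 replicate 2, NP zone 1 replicate 3, NP zone 3 replicate 1 or NP zone 3 replicate 3 was left out (adjusted p between 0.14 and 0.283). At dpc8 it was -2.61 (SE 0.84, adjusted p = 0.15) and at dpc16 -2.98 (SE 0.84, adjusted p = 0.0883). At dpc16 the zones were taken as paired because same-numbered libraries deviated together, a pairing that no label states. The fit with the replicate block, entered at every stage, gave Cyp2a22 a limma adjusted p of 0.000268 at dpc16.

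A pair of enzymes ran the other way. Cyp2f2 had the widest range of group means of the 9 genes, 522-fold. In NP livers it measured 523, 1165 and 1455 FPKM in zone 1, 347, 445 and 569 in zone 2, and 2.61, 6.60 and 0.716 in zone 3. In dpc8 livers it measured 565, 1183 and 1296 FPKM in zone 1, 382, 423 and 527 in zone 2, and 9.24, 19.1 and 19.98 in zone 3. In dpc16 livers it measured 778, 574 and 1467 FPKM in zone 1, 285, 177 and 101 in zone 2, and 2.203, 3.06 and 0.764 in zone 3. Zone 3 was far below both other zones at each stage, while zones 1 and 2 overlapped in NP livers. The excess of zone 1 over zone 3 was 8.06 (SE 0.52) on the log2 scale in NP livers, 5.87 (0.52) at dpc8 and 8.26 (0.52) at dpc16, with limma adjusted p of 2.03e-09, 1.39e-07 and 5.42e-10.

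Cyp2a4, the steroid 15-alpha-hydroxylase, was highest in zone 1 although its sequence is nearly that of Cyp2a5. NP livers had 597, 396 and 1103 FPKM in zone 1, 696, 252 and 255 in zone 2, and 156, 51.5 and 100 in zone 3. For dpc8 the values were 833, 736 and 852 FPKM in zone 1, 1058, 342 and 659 in zone 2, and 393, 172 and 153 in zone 3. For dpc16 they were 2010, 1456 and 2497 FPKM in zone 1, 1127, 850 and 448 in zone 2, and 140, 139 and 154 in zone 3. Zone 1 lay above zone 3 without overlap at each stage, by 6.82 times, 3.37 times and 13.8 times in the means. The log2 difference was 2.77 (SE 0.50, limma adjusted p = 0.00233) in NP livers and 3.74 (SE 0.50, adjusted p = 4.38e-05) at dpc16, and at dpc8 it was 1.88 (SE 0.50, adjusted p = 0.0603), which did not pass. Without dpc8 zone 3 replicate 1, the zone 3 library nearest to zone 1 at 393 FPKM, the dpc8 difference passed. Leaving out that library widens the difference by construction, so this adds no support.

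**Figure D1:**
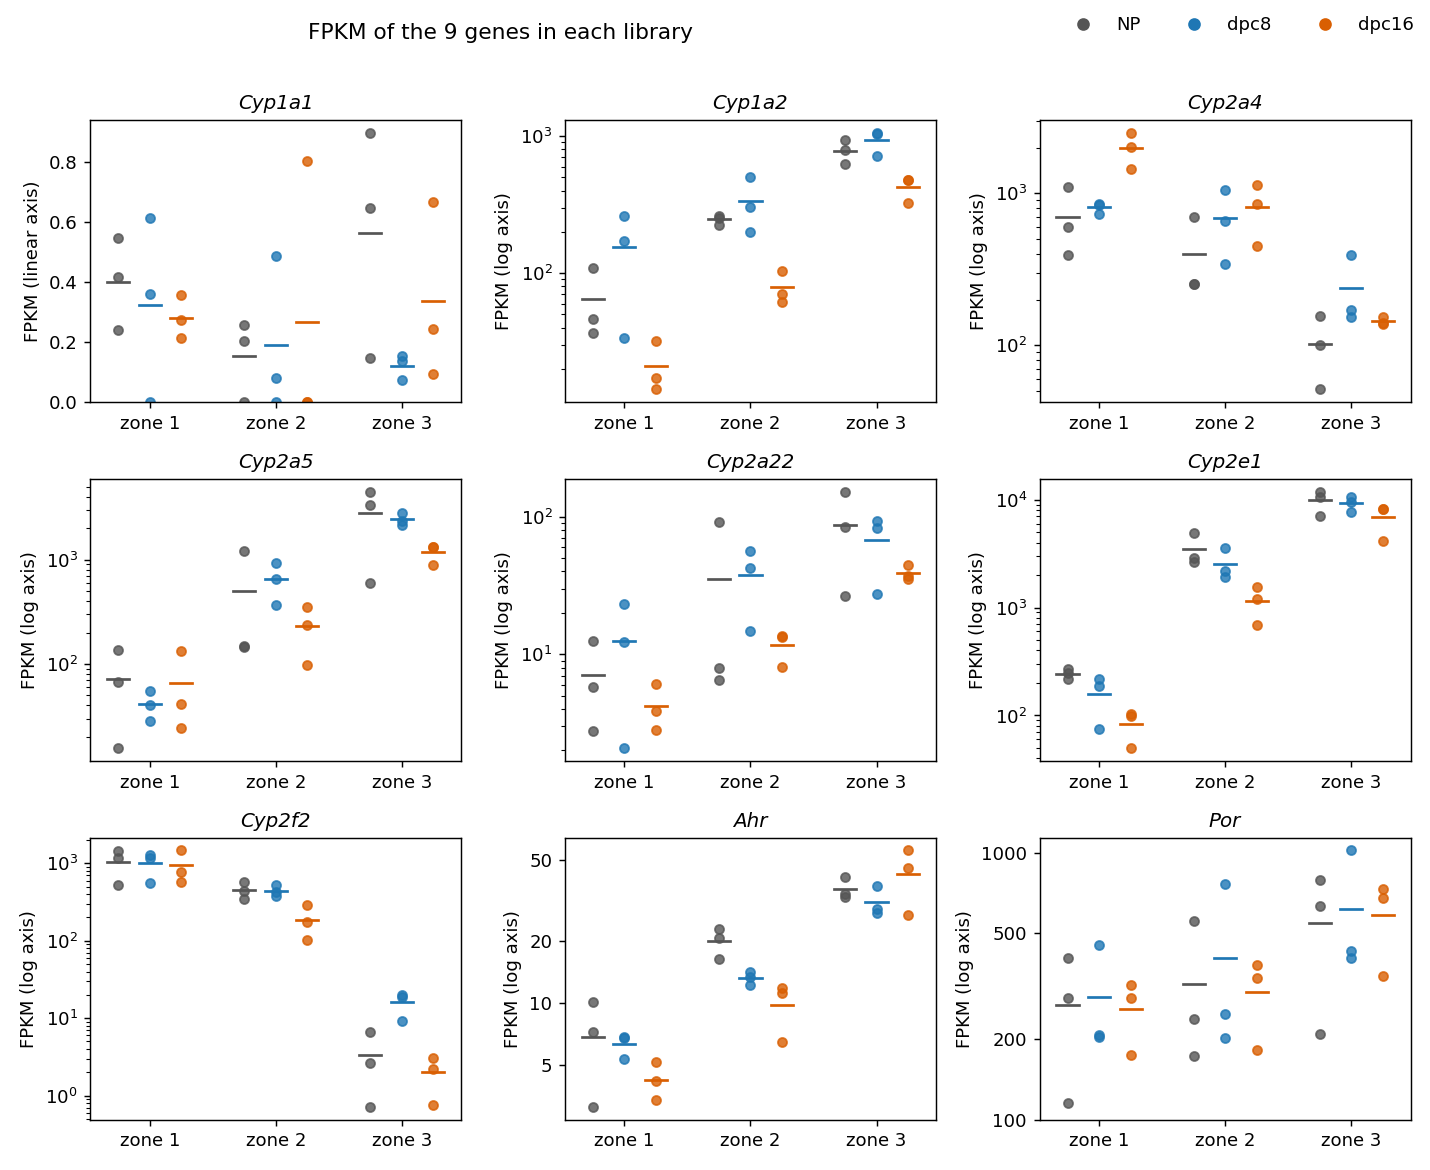
FPKM of each of the 9 genes in each of the 27 libraries, by lobular zone and stage. Points are libraries and short lines are group means (n = 3). The axes are logarithmic except for Cyp1a1, whose libraries reach only 0.896 FPKM. Cyp2f2 and Cyp2a4 fall from zone 1 to zone 3, and Cyp1a2, Cyp2a5, Cyp2a22, Cyp2e1 and Ahr rise.

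Ahr itself was graded like most of the enzymes. Its libraries had 3.14, 10.1 and 7.29 FPKM in zone 1 of NP livers, 16.4, 23.0 and 20.9 in zone 2, and 33.8, 32.9 and 41.0 in zone 3. At dpc8 they had 5.38, 6.81 and 6.87 FPKM in zone 1, 14.2, 12.2 and 13.4 in zone 2, and 37.3, 27.5 and 28.9 in zone 3. At dpc16 they had 4.18, 5.19 and 3.39 FPKM in zone 1, 11.2, 11.9 and 6.49 in zone 2, and 45.6, 55.4 and 27.01 in zone 3. No 2 zones of a stage overlapped. Zone 3 exceeded zone 1 by 5.24 times in NP livers, 4.92 times at dpc8 and 10.03 times at dpc16, with log2 differences of -2.34, -2.13 and -3.01 (SE 0.30 each) and limma adjusted p of 3.57e-05, 0.00015 and 8.05e-07.

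Cyp1a1 was low in every group. It was listed at 0 in 5 libraries and reached at most 0.896 FPKM, in NP zone 3 replicate 3, and the median over 27 libraries was 0.242 FPKM. With 1 read worth 0.012 to 0.0385 FPKM, its values correspond to an estimated 0 to 67.1 reads per library, with a median of 8.25. It was not among the tested genes, and the 2 groups overlapped in each of the 9 comparisons of zones and the 9 of stages. The 6 libraries with Y-linked transcripts had between 0.147 and 0.805 FPKM and a median of 0.552, against 0 to 0.896 and a median of 0.204 in the other 21. Cyp1a2, next to it in the genome, measured at least 14.2 FPKM in the same libraries.

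Por was expressed throughout the lobule, between 115 and 1021 FPKM, and its group means spanned 2.38-fold. The zone 1 means were 269 ± 145 FPKM (SD, n = 3) in NP livers, 287 ± 141 at dpc8 and 260 ± 76.1 at dpc16, against 544 ± 300, 618 ± 350 and 584 ± 208 in zone 3. The log2 differences, -0.99, -1.07 and -1.14 (SE 0.60 each), did not pass (limma adjusted p of 0.794, 0.491 and 0.723), and their 95% intervals ran from -2.24 to 0.26, from -2.31 to 0.18 and from -2.38 to 0.11. The zone 1 and zone 3 libraries overlapped in NP and dpc8 livers and did not at dpc16.

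Counted together, 7 of the 8 tested members differed between zones 1 and 3 in NP livers, 5 lower and 2 higher in zone 1, where 1.34% of all 12952 tested genes did (0.811% lower and 0.525% higher). The members include standard marks of the zones and were chosen with earlier results of these data known, so these counts are a description. At dpc8 5 of 8 differed against 1.61% of all genes, and at dpc16 6 of 8 against 1.55%. The 2 groups did not overlap for 7, 7 and 8 members at the 3 stages, against 12.7%, 23.2% and 14.7% of all genes. The medians over the members were -2.84, -2.37 and -2.99 on the log2 scale, against 0.03, 0.08 and -0.02 over all genes. Without the 6 libraries with Y-linked transcripts the counts were again 7, 5 and 6, where 1.81%, 2.76% and 2.71% of all genes were called. Fitted on the 2 NP groups alone, 3 members passed in NP livers, namely Cyp1a2, Cyp2e1 and Cyp2f2, against 0.54% of all genes. The connective tissue markers fell in zone 1 for 0, 1 and 1 of 13 genes at the 3 stages and none rose. The dpc16 call, Lum, was lost without the libraries with Y-linked transcripts (limma adjusted p = 0.0824). Sox9 was the 1 of 7 biliary markers that was higher in zone 1, in NP and dpc8 livers, and the biliary list summed to 47.4 to 177 FPKM in zone 1 and 2.98 to 97.7 in zone 3. Of 6 Kupffer cell markers, Clec4f was higher in zone 1 at dpc16. Of 7 endothelial and 8 hepatocyte markers tested, limma called 0 between zones 1 and 3 at any stage. The part of these cell types in the differences was not tested.

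**Figure D2:**
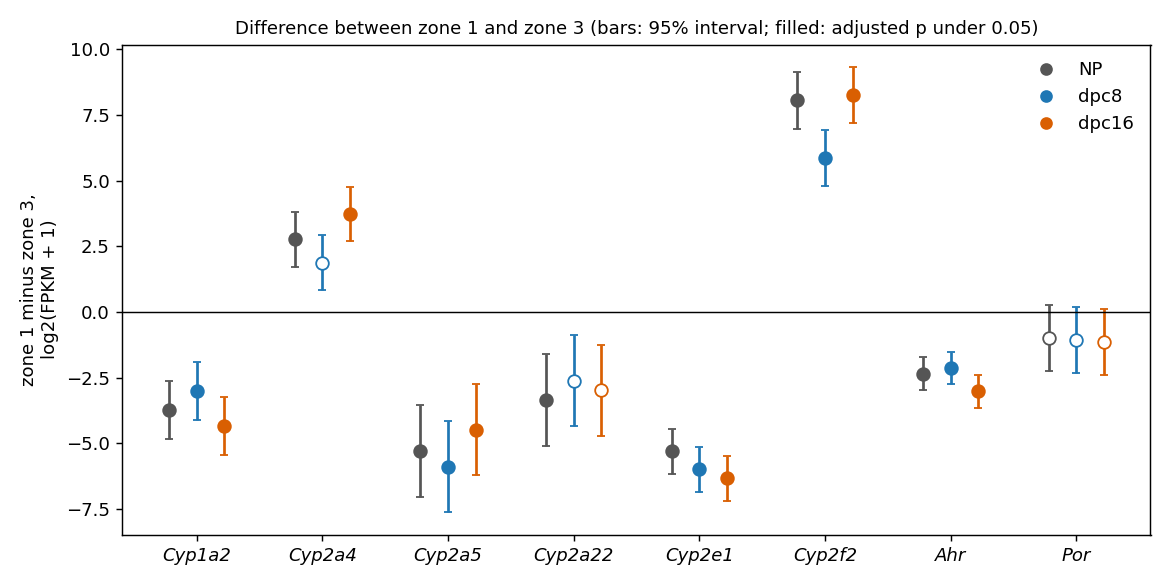
Zone 1 minus zone 3 on the log2(FPKM + 1) scale for the 8 tested genes at NP, dpc8 and dpc16. Points are limma estimates from 3 libraries a group, bars are 95% intervals, and filled points have an adjusted p under 0.05. Cyp2f2 and Cyp2a4 lie above 0 and the others below it, with the Por intervals crossing 0.

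Zone 2 divided each gradient into 2 steps. Between zones 1 and 2 of NP livers, Cyp2e1 (log2 difference -3.77, SE 0.41, limma adjusted p = 5.16e-05) and Ahr (-1.53, SE 0.30, adjusted p = 0.0343) passed, 2 of 8 members where 0.154% of all genes did. The Ahr call was lost when any one of 5 of the 6 libraries was left out, with an adjusted p of up to 0.238. At dpc8 1 member passed between zones 1 and 2, Cyp2e1 (-4.08, SE 0.41, limma adjusted p = 2.13e-05), against 0.124% of all genes, and at dpc16 again Cyp2e1 (-3.75, SE 0.41, adjusted p = 9.56e-05), against 0.139%. Other settings added members. At dpc8 Cyp2a5 passed as well with array weights, the replicate block or the connective tissue covariate. At dpc16 Ahr passed without the libraries with Y-linked transcripts (-1.27, adjusted p = 0.0141), with equal FPKM sums, with the covariate and with array weights, Cyp2f2 with the last 2 of these, and Cyp1a2 with array weights. Under these settings 0.201% to 0.324% of all genes passed at dpc8 and 0.232% to 0.525% at dpc16.

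Between zones 2 and 3 the leading gene was Cyp2f2, with log2 differences of 6.95 in NP livers, 4.76 at dpc8 and 5.93 at dpc16 (SE 0.52 each) and limma adjusted p of 6.71e-08, 1.43e-05 and 6.92e-07. It alone passed in NP livers, against 0.401% of all genes, and without the libraries with Y-linked transcripts Cyp2e1 passed too (-1.75, adjusted p = 0.0283), against 0.842%. At dpc8, where 0.347% of all genes passed, Cyp2e1 passed as well (-1.90, SE 0.41, adjusted p = 0.043), but not when any one of 5 of the 6 libraries was left out, with an adjusted p of up to 0.307. Without the libraries with Y-linked transcripts Ahr passed at dpc8 too (-1.11, adjusted p = 0.0243), against 0.494% of all genes. At dpc16 5 of 8 members passed, against 0.517% of all genes, namely Cyp2f2, Cyp2e1 (-2.58, SE 0.41, adjusted p = 0.00148), Ahr (-1.99, SE 0.30, adjusted p = 0.000831), Cyp1a2 (-2.44, SE 0.53, adjusted p = 0.0313) and Cyp2a4 (2.38, SE 0.50, adjusted p = 0.0252). The Cyp1a2 call was lost without any one of the 6 libraries, with adjusted p between 0.059 and 0.191, and the Cyp2a4 call without any except dpc16 zone 2 replicate 3, with adjusted p between 0.073 and 0.205. With the replicate block, which treats same-numbered dpc16 zones as paired, Cyp2a5 passed too (-2.51, adjusted p = 0.0437, against 0.495 without the block).

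The near-identical genes Cyp2a4 and Cyp2a5 exchanged places across the lobule. Cyp2a4 made up 89.9%, 96.2% and 89.1% of the summed FPKM of the pair in the NP libraries of zone 1, 36.7%, 63.4% and 63.3% in zone 2, and 4.45%, 7.96% and 2.18% in zone 3. At dpc8 the shares were 93.8%, 94.7% and 96.8% in zone 1, 53.2%, 48.2% and 50.1% in zone 2, and 12.3%, 7.34% and 6.18% in zone 3. At dpc16 they were 98.0%, 98.4% and 94.9% in zone 1, 82.6%, 89.6% and 55.9% in zone 2, and 9.59%, 13.5% and 10.4% in zone 3. The 3 zones were separate at each stage, and the zone 2 shares at dpc16 overlapped those of NP livers only in replicate 3, a library with Y-linked transcripts. These are ratios within a library, which do not depend on its scaling, but a read from a window that the genes share can be assigned to neither.

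Across the 27 libraries the log2 levels of Cyp2a4 and Cyp2a5 had a Pearson r of -0.62. Within groups, as deviations from the group means, r was 0.69, and both genes deviated together with Por (0.83 for Cyp2a4, 0.65 for Cyp2a5). The libraries share depth, dissection and scaling, and these correlations are a description.

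**Figure D3:**
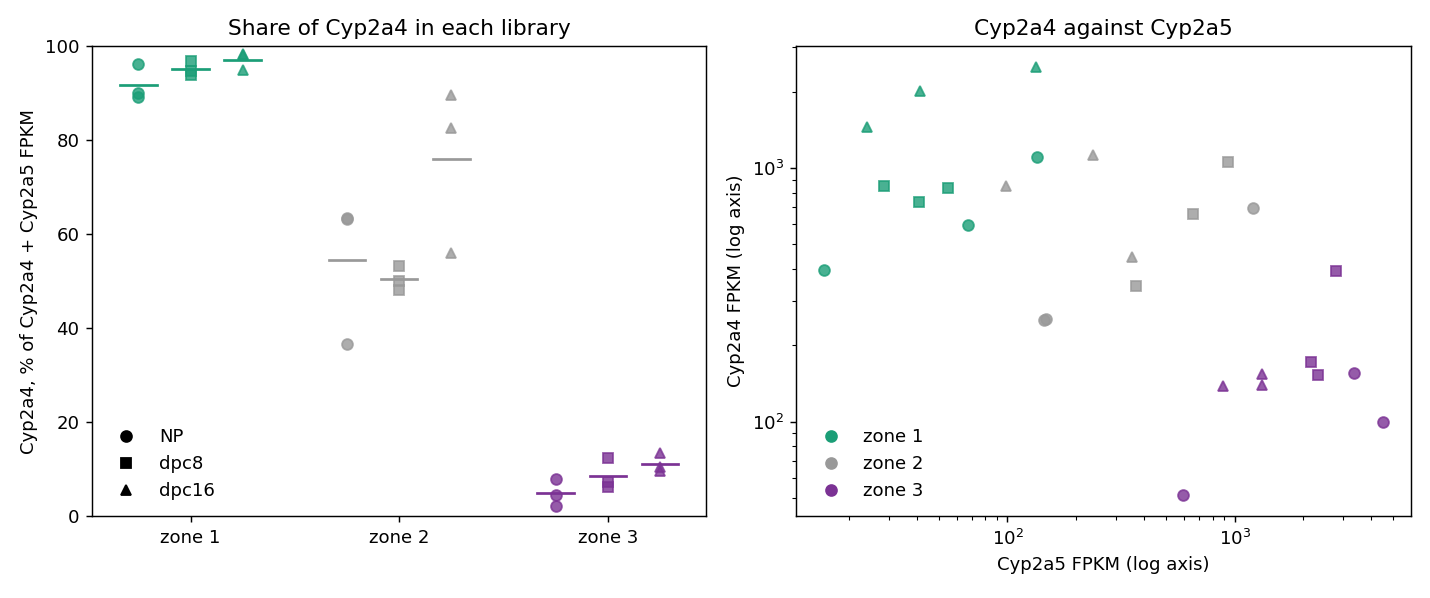
Cyp2a4 as a percentage of the summed FPKM of Cyp2a4 and Cyp2a5 in each library (left; lines are group means, n = 3) and the 2 levels against each other on logarithmic axes (right). Symbols mark the stage and colours the zone. Zone 1 libraries lie between 89.1% and 98.4%, zone 2 libraries between 36.7% and 89.6%, and zone 3 libraries between 2.18% and 13.5%.

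The second question was whether the gradients shifted with pregnancy. Both pregnant stages were set against the same NP libraries, so the 2 sets of differences are not independent. No member passed the test at midgestation. In dpc8 against NP livers, limma called 0 of 8 members in each zone, where 0.0309%, 0.00772% and 0.0154% of all genes were called in zones 1, 2 and 3, and 0, 0 and 2 members had an unadjusted p under 0.05, against 3.13%, 5.06% and 2.74% of all genes. The 2 were Cyp2f2 and Cyp2a4 in zone 3. Cyp2f2 was 16.1 ± 5.95 FPKM at dpc8 and 3.31 ± 3.00 in NP livers (SD, n = 3), without overlap between the groups, as for 9.81% of all genes, a log2 difference of 2.17 (SE 0.52, adjusted p = 0.717). Without the libraries with Y-linked transcripts, which removes NP zone 3 replicate 2 from this comparison, the Cyp2f2 difference was 2.71 with an adjusted p of 0.0153, where 0.0695% of all genes were called.

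At late gestation, Cyp2e1 fell in zone 2, from 3454 ± 1230 FPKM in NP livers to 1147 ± 440 at dpc16 (SD, n = 3), without overlap, by a log2 difference of -1.61 (SE 0.41, limma adjusted p = 0.0354). It was the only member called among the 24 tests of dpc16 against NP, 1 of 8 in zone 2 against 2.66% of all genes, and 0 of 8 in zones 1 and 3 against 1.37% and 1.32%. Unadjusted p was under 0.05 for 3, 5 and 0 members in zones 1, 2 and 3, against 11%, 16.6% and 11.5% of all genes. The Cyp2e1 call depended on single libraries, being lost without NP zone 2 replicate 1, 2 or 3 or dpc16 zone 2 replicate 2 or 3, and it was also lost without the libraries with Y-linked transcripts (-1.28, adjusted p = 0.059). In zone 1 Cyp2e1 went from 244 ± 26.2 to 84.0 ± 29.6 FPKM, again without overlap (-1.59, SE 0.41, adjusted p = 0.0579), and without those libraries the difference was -1.68 (adjusted p = 0.0185). In zone 3 it was 9856 ± 2458 and 6844 ± 2372 FPKM, which overlapped (-0.56, SE 0.41, adjusted p = 0.706). Some marker genes moved with Cyp2e1 in zone 2. The 12 pericentral markers summed to 1990 to 2083 FPKM in NP livers and to 671 to 1466 at dpc16, and 2 of the 12 fell and 0 rose by limma. The 6 Kupffer cell markers summed to 179 to 299.6 FPKM and 38.3 to 161, with a dpc16 median of 143, and 1 of the 6, Clec4f, fell. The Clec4f call was lost without the libraries with Y-linked transcripts (-0.70, limma adjusted p = 0.0549). Neither sum overlapped between the stages, and no gene of either list was at 0 FPKM in these 6 libraries. Of 12 periportal and 8 hepatocyte markers 1 each fell, and of the connective tissue, biliary and endothelial markers 0 were called. The periportal call, Gls2, was lost without the libraries with Y-linked transcripts (limma adjusted p = 0.0504). The periportal sums overlapped, at 51344 to 75208 FPKM in NP livers and 43001 to 208578 at dpc16 (medians 51479 and 160071). So did the hepatocyte sums, at 72932.5 to 102086 and 57298 to 262062 FPKM (medians 74258 and 211092). The part of these markers in the Cyp2e1 difference was not tested.

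Cyp1a2 was lower at dpc16 than in NP livers without overlap in each zone, but not past the threshold. Its means were 21.0 ± 9.45 against 64.3 ± 39.7 FPKM (SD, n = 3) in zone 1, 78.8 ± 22.7 against 247 ± 18.0 in zone 2, and 427 ± 87.6 against 784 ± 151 in zone 3. The log2 differences were -1.49, -1.67 and -0.88 (SE 0.53 each, limma adjusted p of 0.224, 0.0983 and 0.588). Groups without overlap were common, at 17.4%, 17.4% and 16.7% of all genes in the 3 zones. Without the libraries with Y-linked transcripts Cyp1a2 passed in zone 1 (-1.80, adjusted p = 0.0288) and zone 2 (-1.61, adjusted p = 0.0392), and Ahr passed in zone 1 (-0.88, adjusted p = 0.0373), where 2.92% and 4.45% of all genes were called in zones 1 and 2.

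Of the 24 member differences between dpc16 and NP, that of Cyp2a4 in zone 1 was the most positive, 1988 ± 521 FPKM against 699 ± 365 in NP livers (SD, n = 3), without overlap, but it did not pass (1.60, SE 0.50, limma adjusted p = 0.137). The corresponding values in zone 2 were 808 ± 341 and 401 ± 256 FPKM (1.09, SE 0.50, adjusted p = 0.272). Cyp2a5 had 1177 ± 250 FPKM in zone 3 at dpc16 against 2809 ± 1999 in NP livers (-0.84, SE 0.84, adjusted p = 0.825). Ahr in zone 2 was 9.86 ± 2.95 against 20.1 ± 3.40 FPKM, without overlap (-0.99, SE 0.30, adjusted p = 0.0876), and Cyp2f2 in zone 2 was 188 ± 92.5 against 453 ± 111, without overlap (-1.36, SE 0.52, adjusted p = 0.173). Por at dpc16 was 0.967, 0.933 and 1.07 times its NP mean in zones 1, 2 and 3.

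The high FPKM sums of most dpc16 libraries bear on these values. The exceptions were zone 2 replicate 3 and zone 3 replicate 3, with sums of 523854 and 573644 FPKM. Scaling all libraries to equal sums, an alternative added after the data were seen, moved the median difference of all genes between dpc16 and NP by -0.48, -0.21 and -0.21 on the log2 scale in zones 1, 2 and 3. Under it 3 members fell in zone 1, namely Cyp2e1 (-2.20, limma adjusted p = 0.000615), Cyp1a2 (-2.06, adjusted p = 0.0188) and Ahr (-0.95, adjusted p = 0.0199), and 4 fell in zone 2, namely Cyp2e1 (-1.90, adjusted p = 0.00137), Ahr (-1.25, adjusted p = 0.00145), Cyp1a2 (-1.95, adjusted p = 0.0163) and Cyp2f2 (-1.65, adjusted p = 0.0276). Of all genes, 5.56% were called in zone 1 and 8.72% in zone 2 under it. The median of all genes stood at -0.53 in zone 1 and -0.18 in zone 2 under this scaling. Cyp2a4 in zone 1 was then 0.99 above NP (adjusted p = 0.189).

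Between the 2 pregnant stages, a single member was called in zone 1 and in zone 3. Cyp1a2 in zone 1 fell from 156 ± 115 FPKM at dpc8 to 21.0 ± 9.45 at dpc16 (SD, n = 3; -2.48, SE 0.53, limma adjusted p = 0.0152), where 2.01% of all genes were called. It was among 3 members without overlap in zone 1, against 19.9% of all genes. The call was lost without dpc8 zone 1 replicate 2 or 3 or dpc16 zone 1 replicate 1 or 2, with adjusted p between 0.0731 and 0.0959. Cyp2f2 in zone 3 fell from 16.1 ± 5.95 to 2.01 ± 1.16 FPKM (-2.52, SE 0.52, adjusted p = 0.0129), where 1.37% were called. It too was among 3 members without overlap, against 23.3% of all genes, and the call was lost without dpc8 zone 3 replicate 2 or 3 or dpc16 zone 3 replicate 3, with adjusted p between 0.0673 and 0.0822. In zone 2 limma called 0 of 8 members against 1.51% of all genes, 3 had an unadjusted p under 0.05 against 12.1% of all genes, and 6 did not overlap between the stages against 13.8% of all genes, Cyp1a2 among them (-2.01, SE 0.53, adjusted p = 0.0587, and -1.97, adjusted p = 0.0246, without the libraries with Y-linked transcripts). All 6 were lower at dpc16, as were 6.96% of all genes without overlap. With equal FPKM sums 3 members fell in zone 1, Cyp1a2, Cyp2e1 (-1.55, limma adjusted p = 0.0100) and Ahr (-1.06, adjusted p = 0.00842), and 4 in zone 2, the same 3 and Cyp2f2, where 11.5% and 7% of all genes were called and their medians stood at -0.62 and -0.27. Marker genes differed between the pregnant stages as well. In zone 1 the 12 pericentral markers summed to 557 to 721 FPKM at dpc8 and 404 to 511 at dpc16, with 2 of the 12 lower and 1 higher by limma. Other lists there were higher at dpc16. The 8 hepatocyte markers summed to 45069 to 78786 FPKM at dpc8 and 206526 to 259566 at dpc16, with 3 of the 8 higher (Alb, Apoa1 and Ahsg), and 2 of 12 periportal markers were higher (Aldh1b1 and Alb). The 7 endothelial markers summed to 74.4 to 76.1 and 122 to 131.8 FPKM, without overlap, with 0 called. In zone 3 the periportal markers Hal (-2.96, limma adjusted p = 0.00805) and Gls2 (-2.61, adjusted p = 0.0153) were lower at dpc16, as Cyp2f2 was. The sum of the 12 periportal markers, Alb included, went the other way in zone 3, from 27609.5 to 30848.2 FPKM at dpc8 to 55355.5 to 139129 at dpc16. The 8 hepatocyte markers summed to 49964.6 to 51222.9 and 78314.4 to 186194 FPKM there, and neither sum overlapped between the stages. There the 6 Kupffer cell markers summed to 101 to 152 and 24.5 to 47.3 FPKM, with 2 of the 6 lower. Their part in the Cyp1a2 and Cyp2f2 differences was not tested.

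**Figure D4:**
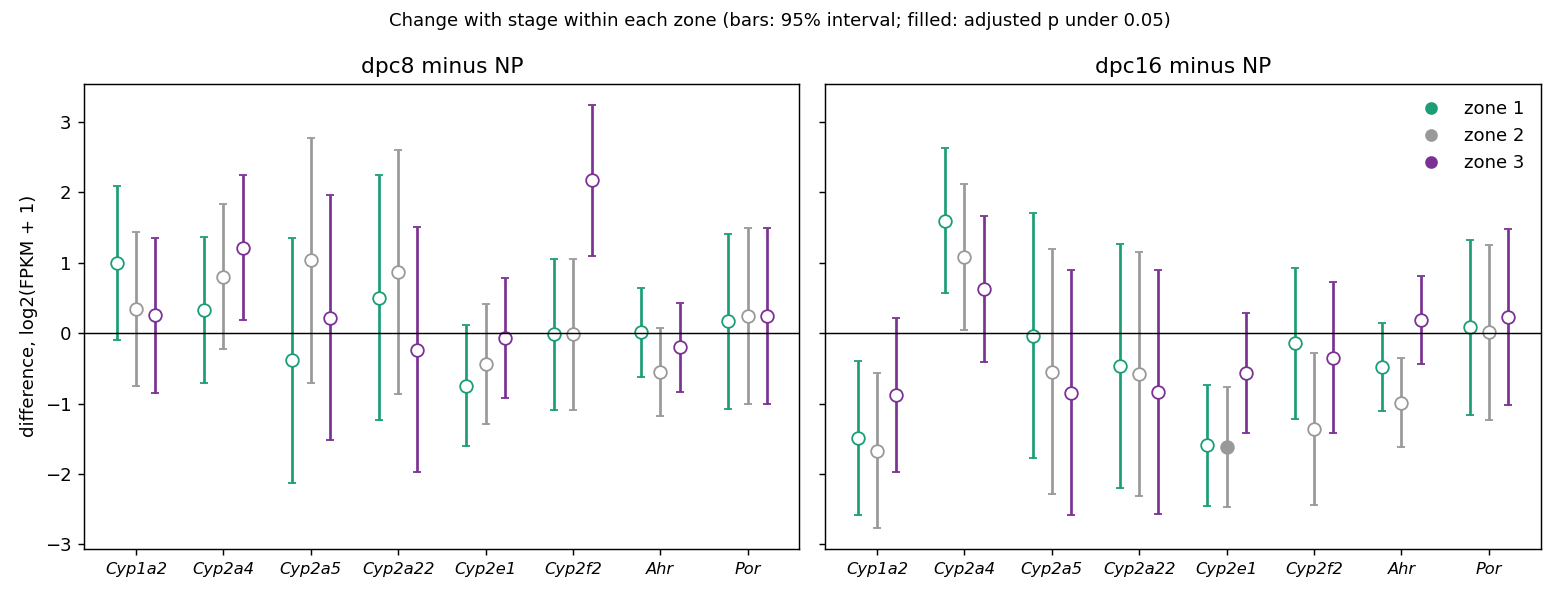
Change of the 8 tested genes from NP to dpc8 (left) and from NP to dpc16 (right) on the log2(FPKM + 1) scale in zones 1, 2 and 3. Points are limma estimates from 3 libraries a group, bars are 95% intervals, and filled points have an adjusted p under 0.05, which holds for Cyp2e1 in zone 2 at dpc16. Both panels use the same NP libraries.

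No member's change was shown to differ between zones. In the 6 tests of such differences limma called 0 of 8 members each, and 1 member had an unadjusted p under 0.05 in each of 3 tests, where 2.36%, 2.86% and 2.47% of all genes did, in the order given here. The dpc8 change of Cyp2f2 was lower in zone 1 than in zone 3 by a log2 difference of -2.18 (SE 0.73, unadjusted p = 0.00688, adjusted p = 1) and lower in zone 2 than in zone 3 by -2.19 (SE 0.73, unadjusted p = 0.00682, adjusted p = 0.997). The dpc16 change of Ahr was lower in zone 2 than in zone 3 by -1.17 (SE 0.43, unadjusted p = 0.0118, adjusted p = 1). Over all genes, limma called 7 (0.054%) for the dpc16 change in zone 1 against zone 3, 2 (0.0154%) for that in zone 2 against zone 3, and 0 in the other tests.

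Added up, the 7 P450 genes came to 13643 ± 4528 FPKM in zone 3 of NP livers, 12976 ± 1607 at dpc8 and 8633 ± 2210 at dpc16 (SD, n = 3). As a share of each library's FPKM this was 2.69%, 1.496% and 2.45% in the NP libraries, 2.32%, 2.18% and 1.82% at dpc8, and 1.21%, 1.16% and 1.06% at dpc16. The dpc16 shares lay below all the others in zone 3. The summed FPKM themselves overlapped there between NP livers (8416 to 16290) and dpc16 (6097 to 10145). In zone 2 the shares were 1.21%, 0.628% and 0.618% in NP livers and 0.343%, 0.276% and 0.320% at dpc16, also without overlap. In zone 1 they were 0.291%, 0.297% and 0.437% in NP livers and 0.299%, 0.236% and 0.477% at dpc16, which overlapped. Alb took a larger part of most dpc16 libraries, and its part in these shares was not tested. Por amounted to 13.0 ± 6.75 FPKM per 100 FPKM of the P450 genes in zone 1 of NP livers and 3.75 ± 1.181 in zone 3, and at dpc16 to 8.89 ± 3.75 and 6.63 ± 0.944 (SD, n = 3).

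**Figure D5:**
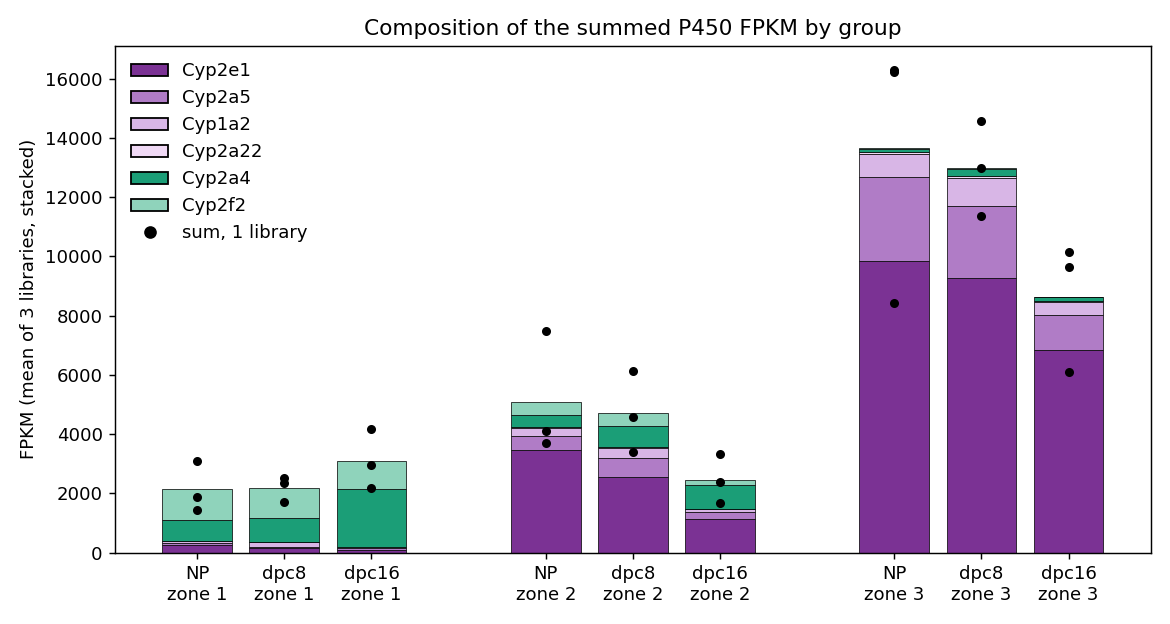
Summed FPKM of the P450 genes by stage and zone. Bars stack the group means (n = 3) of each gene, with the genes highest in zone 3 in purple and those highest in zone 1 in green, and black points are the sums of single libraries. Cyp1a1, under 1 FPKM, is too small to draw. Cyp2e1 is the tallest layer in zones 2 and 3, and Cyp2a4 and Cyp2f2 are the tallest in zone 1.

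For each tested member, genes among the 3 whose log2 levels correlated with it most closely over the 27 libraries are named as a description. The libraries share zones, stages and scaling. Cyp1a2 was closest to Gstm6 (r = 0.97), Lect2 (0.93) and Rgn (0.93), Cyp2e1 to Cyp2c38 (0.96), Oat (0.95) and Gulo (0.94), and Cyp2a5 to Gulo (0.91), Fcho2 (0.91) and Fitm1 (0.90). Cyp2a22 was closest to the glutathione transferase genes Gstm3 (0.82) and Gstm2 (0.81) and to Tafa2 (0.82). Cyp2f2 followed Hal (0.98), the histidine ammonia-lyase of periportal hepatocytes, Sds (0.97) and Hsd17b13 (0.97). Cyp2a4 followed Cyp17a1 (0.90) and Hgfac (0.90). Ahr followed Rgn (0.93) and Cyp2c38 (0.93), and Por was closest to Cobll1 (0.85), Pfkfb1 (0.84) and Cebpb (0.83).

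Genes that serve or accompany these enzymes were read from lists. Of 13 tested genes of the Ahr pathway, 0 differed between zones 1 and 3 at any stage by limma. At dpc16 against NP Ugt1a6b, a glucuronosyltransferase whose reads overlap its Ugt1a neighbours, fell in all 3 zones, from 22.6 to 7.39 FPKM in zone 1 (-1.53, SE 0.36, limma adjusted p = 0.0327), from 35.7 to 8.39 in zone 2 (-1.97, SE 0.36, adjusted p = 0.00332) and from 42.1 to 12.3 in zone 3 (-1.77, SE 0.36, adjusted p = 0.0116). Ugdh, which makes UDP-glucuronic acid, fell in zone 1 (-1.43, SE 0.34, adjusted p = 0.0294), and 0 genes of the list rose. Of 13 genes that pass electrons or NADPH to P450 enzymes, 0 differed between zones 1 and 3, and Cyb5b fell in zone 3 at dpc16 (-1.40, SE 0.34, adjusted p = 0.0402). Of 12 genes of haem metabolism, Blvrb, a biliverdin reductase, was lower in zone 1 than in zone 3 at each stage (-2.11, -2.64 and -1.87, SE 0.27 each, limma adjusted p of 3.53e-05, 1.45e-06 and 0.000133), and Alad, of haem synthesis, was lower at dpc8 (-1.24, SE 0.32, adjusted p = 0.0475).

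Among 18 transcription factors of hepatic P450 genes, limma called 0 between zones 1 and 3 or between dpc16 and NP. Of 9 neighbouring P450 genes on chromosome 7, 5 were tested. Cyp2b13, one of the closely related Cyp2b genes, fell between NP and dpc16 from 62.3 to 2.99 FPKM in zone 1 (-3.99), from 104 to 3.83 in zone 2 (-4.44) and from 118 to 14.2 in zone 3 (-2.82; SE 0.45 each, limma adjusted p of 1.11e-05, 4.08e-06 and 0.00108), and was lower in zone 1 than in zone 3 at dpc8 (-3.09, adjusted p = 0.000207) and dpc16 (-2.02, adjusted p = 0.0169). Of 13 conjugating (phase 2) enzymes, Ugt1a9 was higher in zone 1 at NP, dpc8 and dpc16 (2.17, 2.01 and 2.03, SE 0.41 each, limma adjusted p of 0.0043, 0.0088 and 0.00656), and Gstm1 was lower in zone 1 at dpc16 (-2.03, SE 0.47, adjusted p = 0.0207). Between NP and dpc16 Sult1d1, a sulfotransferase, fell in zone 2 (-3.02, SE 0.45, adjusted p = 0.000364) and zone 3 (-2.68, SE 0.45, adjusted p = 0.00136), and Gstt1 fell in zone 2 (-1.63, SE 0.42, adjusted p = 0.0387). Without the libraries with Y-linked transcripts the genes named with an adjusted p from these lists of accompanying genes passed again in the same comparisons and directions, with limma adjusted p of at most 0.0352.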

How the data were processed

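RNA was measured in laser-microdissected lobular zones. Per the labels and the study's methods, the authors trimmed reads with cutadapt, aligned them to mm10 with HISAT2 2.1.0, kept uniquely mapped reads over protein-coding GENCODE genes and deposited FPKM from Cuffdiff (Cufflinks 2.2.1). Whether strand was used in counting is not given in the sources used here. Depth was estimated from the steps of low values in 2830 genes with 1 transcript, where 91.5% to 95.7% of low values lay on whole multiples (tolerance 0.05).

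Values were taken as log2(FPKM + 1), a scale that understates changes of low genes, and 9 group means were fitted over 27 libraries with limma 3.58.1 (R 4.3.3). The fit covered the 12952 genes that reached 1 FPKM in 3 or more libraries. Variances were moderated with a trend, robustly. Tests were two-sided, and Benjamini-Hochberg adjustment ran within each of 24 comparisons at a threshold of 0.05. The procedure was tested on simulated data. The study's own test, Cuffdiff, needs reads. Sequences were read with Python 3.11.15 and Biopython 1.88, and figures drawn with matplotlib 3.10.9.

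Named genes are the 9 members, the 3 genes most correlated with each, and from each list at most 3 rising and 3 falling genes, by size of change, among those past the threshold in zone 1 against zone 3 or dpc16 against NP. A few genes that this rule names are not reported here. Members and lists were chosen with earlier results of these data known. The alternatives were pseudocount 0.1, no filter, quantile normalization, array weights, only the groups compared, replicate block, a connective tissue covariate, leaving out the 6 libraries with Y-linked transcripts, leaving out each library, and, added after the data were seen, equal FPKM sums. Replicate numbers recur in all groups, and the labels do not say what they mean. Deviations of same-numbered libraries from their group means correlated by over 0.1 in 9 of 9 pairs between dpc16 zones (0.26 to 0.86), which were taken as paired, and in fewer pairs elsewhere.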

Additional observations from a re-analysis of the deposited data

How the results depend on the processing

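No member that passed changed direction under any alternative. Counts of the 8 tested members that pass changed as follows, each with the share of all tested genes called in parentheses. Fitting only the groups compared gave, in NP livers, 3 for zone 1 against zone 3 (0.54%), 1 for zone 1 against zone 2 (0.0154%) and 2 for zone 2 against zone 3 (0.232%), 0 for zone 1 against zone 2 at dpc8 and at dpc16 (0% each), 1 for zone 2 against zone 3 at dpc8 (0.232%) and at dpc16 (0.0386%), 0 for dpc16 against NP in zone 2 (0.131%) and 0 for dpc16 against dpc8 in zone 1 (0.911%). These fits have fewer libraries. Pseudocount 0.1 (0.247%) and no filter (0.262%) each gave 1 for zone 2 against zone 3 at dpc8. Quantile normalization gave 1 for zone 1 against zone 2 (0.162%) and 2 for zone 2 against zone 3 (0.394%) in NP livers, 1 for dpc16 against NP in zone 1 (1.32%) and 2 for dpc16 against dpc8 in zone 2 (1.51%). Array weights gave 2 for zone 2 against zone 3 in NP livers (0.788%), 2 for zone 1 against zone 2 (0.324%) and 5 for zone 2 against zone 3 (0.888%) at dpc8, 4 for zone 1 against zone 2 at dpc16 (0.525%), 1 for dpc8 against NP in zone 3 (0.0618%), 3 for dpc16 against NP in zone 1 (5.15%) and in zone 2 (8.5%), and 1 and 3 for dpc16 against dpc8 in zones 2 and 3 (7.67% and 12.1%). The connective tissue covariate gave 3 for zone 2 against zone 3 in NP livers (0.896%), 2 and 3 for zone 1 against zone 2 at dpc8 and dpc16 (0.216% and 0.34%), 1 and 2 for dpc16 against NP in zones 1 and 2 (2.73% and 5.86%), and 1 for dpc16 against dpc8 in zone 2 (5.66%). Leaving out the 6 libraries with Y-linked transcripts gave 2 for zone 2 against zone 3 in NP livers (0.842%), 2 for zone 1 against zone 2 at dpc16 (0.317%), 1 for dpc8 against NP in zone 3 (0.0695%), 3 for dpc16 against NP in zone 1 (2.92%) and 1 for dpc16 against dpc8 in zone 2 (3.91%). Equal FPKM sums gave 2 for zone 2 against zone 3 in NP livers (0.726%), 2 for zone 1 against zone 2 at dpc16 (0.232%), 3 and 4 for dpc16 against NP in zones 1 and 2 (5.56% and 8.72%), and 3 and 4 for dpc16 against dpc8 in zones 1 and 2 (11.5% and 7%). The causes were not tested.

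With the replicate block the counts were 5 for zone 2 against zone 3 in NP livers (0.857%), 2 for zone 1 against zone 2 at dpc8 (0.201%), 1 for dpc16 against NP in zone 1 (1.74%) and 1 for dpc16 against dpc8 in zone 2 (1.91%). Only the dpc16 zones were taken as paired. There the block gave 7 for zone 1 against zone 3 (2.65%) and 6 for zone 2 against zone 3 (0.857%) and changed no call other than those of Cyp2a22 and Cyp2a5. Replicate 3 of both zone 2 and zone 3 at dpc16 held Y-linked transcripts, and the part of these libraries in the correlations was not tested. In the other families 3 to 5 of 9 same-numbered pairs correlated by over 0.1, among them all pairs between dpc8 zones 2 and 3 (0.32 to 0.35). All pairs between NP and dpc8 livers also did in zone 1 (0.27 to 0.68) and in zone 3 (0.105 to 0.212).

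Leaving out 1 library gave 1 to 2 members for zone 1 against zone 2 and 1 to 2 for zone 2 against zone 3 in NP livers, 1 to 2 for zone 2 against zone 3 at dpc8, 3 to 4 for the same at dpc16, 0 to 1 for dpc16 against NP in zone 2, and 0 to 1 for dpc16 against dpc8 in zones 1 and 3. The other counts stayed within 1.5 times of those reported.

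Counts over all genes moved more. Between zones 1 and 3 they were 173, 208 and 201 at NP, dpc8 and dpc16, with lowest and highest values over the settings other than leaving out 1 library of 70 and 315, 155 and 855, and 149 and 496. Between dpc16 and NP they were 177, 345 and 171 in zones 1, 2 and 3, with 59 and 720, 17 and 1130, and 40 and 776. Between dpc16 and dpc8 they were 260, 195 and 178, with 118 and 1487, 0 and 993, and 152 and 1567. Between zones 1 and 2 they were 20, 16 and 18, with 2 and 58, 0 and 42, and 0 and 68, and between zones 2 and 3 they were 52, 45 and 67, with 30 and 116, 30 and 115, and 5 and 278. Between dpc8 and NP they were 4, 1 and 2, with 0 and 22, 0 and 6, and 0 and 9.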
